A study of Mus musculus with 2 samples.

Results

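The Myc and Max network is a family of basic helix-loop-helix leucine zipper transcription factors that act as dimers on E-box DNA. Its members are Myc, Mycn, Mycl, Max, Mga, Mnt and Mlx. They were followed through lists of positions that tools called as m6A on native mRNA of mouse embryonic stem cells (mESCs). Every unique genome position and strand that lay in an exon of 1 of the 7 genes, on the strand of the gene, was taken as a member position. This rule gave 98 of the 160430 positions in the 17 lists, spread over 6 of the 7 genes. In the lists used here, 0 positions lay in exons of Myc, and Myc was not analysed further here, so nothing about its m6A can be read from that count.

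Poly(A) RNA of wild-type (WT) and Mettl3 knockout (KO) mESCs, both of 129 mice, was read directly on nanopores, from 1 library of each kind and without replicates. In the KO cells, drug resistance cassettes stood in for exons 5 to 7 on both alleles of Mettl3, the gene of the methyltransferase that writes most m6A of mRNA. By mass spectrometry, the paper found almost no m6A in the KO mRNA. It proposes that false positives are common among the KO calls of tools run on 1 sample. A KO listing is not read here as m6A. Each library has its own list from xPore, Epinano, ELIGOS, m6Anet, Nanom6A, MINES and Tombo, and a further 3 tools, DRUMMER, DiffErr and Nanocompore, gave 1 comparison list of WT against KO. The xPore lists are not calls from separate libraries, since xPore fits 1 mixture model to both libraries and estimates a rate in each. A line of a list is a position, a strand and a transcript or gene name, with no score, rate, coverage or read number, so the depth behind each position is unknown beyond a small minimum read number that the methods required, higher for m6Anet, and an unlisted position cannot be told apart from one with too few reads. No test between the conditions was possible, positions of 1 gene are not replicates, and the 95% Wilson intervals given for shares cover counting error only.

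In this network, Max is the common partner. Myc, Mycn and Mycl pair with Max and activate genes of growth and biosynthesis, whereas Mnt and Mga pair with Max and repress or compete at the same E-boxes. Mga is also a scaffold of the Polycomb complex PRC1.6, which keeps germline genes silent in embryonic stem cells, and Mlx is the partner of a parallel branch that includes the glucose-responsive Mondo proteins. m6A is a methyl mark on adenosine of mRNA that sits mostly in RRACH sequences (R is A or G, H is A, C or T) and is best known for marking transcripts for decay.

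All 98 member positions were the A of an RRACH 5-mer, were named for their own gene in the lists, and were shared with 0 other genes. The sequences below are those on which the results turn, 10 nt on each side of the listed A, read from the GRCm38 genome (RefSeq GRCm38.p6) on the strand of the gene and written 5′ to 3′ as DNA. Capitals mark the RRACH 5-mer, and the number after the gene name is the distance in nt, on the spliced transcript, from the first base of the stop codon, with negative values upstream. The set in Mycn is shown because Mycn is the member with listings from most tools, and it runs from the coding sequence (CDS) across the stop codon.
Mycn -1043 nt, chr12:12940040-12940060, minus strand: atccttcaGGACTgcatgtgg
Mycn -266 nt, chr12:12937264-12937284, minus strand: cgaaactcAGACTcggaggac
Mycn -257 nt, chr12:12937255-12937275, minus strand: gactcggaGGACAgcgagcgc
Mycn -176 nt, chr12:12937174-12937194, minus strand: acgctcagGGACCatgtgcct
Mycn -6 nt, chr12:12937004-12937024, minus strand: acacgctcGGACTtgctaaac
Mycn 18 nt, chr12:12936980-12937000, minus strand: tcccacacGGACAgtcactgc
Mycn 145 nt, chr12:12936853-12936873, minus strand: agggggcaGGACAcggggttc

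The sequences of Mycl and Mga are shown because most of them carry GGACA and were listed in KO but not in WT. The GGACC of the Mga 3′ untranslated region (UTR) is the position with most WT and most KO tools in that gene.
Mycl 442 nt, chr4:123000945-123000965, plus strand: tgatctgaGGACAgctgggcc
Mycl 965 nt, chr4:123001468-123001488, plus strand: cctctgaaGGACAagccctat
Mga -2765 nt, chr2:119947700-119947720, plus strand: ctttctaaGGACAgtaaattt
Mga -2669 nt, chr2:119947796-119947816, plus strand: ctggggaaGGACAgtcttaga
Mga -1516 nt, chr2:119960882-119960902, plus strand: tagatcttGGACAgatgctca
Mga 549 nt, chr2:119965502-119965522, plus strand: tatcaaggGGACAgacacaca
Mga 2102 nt, chr2:119967055-119967075, plus strand: gaaacaatGGACCattgtggc

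Max, Mnt and Mlx are represented by their positions with most tools in WT or in KO, and Mlx also by both of its WT positions in MINES. Every KO position of Mnt had 1 KO tool, and the first on the transcript, at 151 nt, is shown.
Max 975 nt, chr12:76937585-76937605, minus strand: ctggtactAAACCcacagccc
Mnt 151 nt, chr11:74843459-74843479, plus strand: gggtgcagAGACTctgagcca
Mnt 250 nt, chr11:74843558-74843578, plus strand: cttttggtGGACAttcttgcc
Mlx -866 nt, chr11:101087344-101087364, plus strand: tctccggaGGACCcttgggtc
Mlx -224 nt, chr11:101089690-101089710, plus strand: gcacatcaGGACAaccctcat
Mlx 61 nt, chr11:101091214-101091234, plus strand: tggccatgGAACTaactgctg
Mlx 82 nt, chr11:101091235-101091255, plus strand: ggcctatgAGACTggcctgca

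The surplus of KO over WT positions in the network came from Mga. A WT or comparison list held 50 of the 98 positions, a KO list held 80, both held 32, 18 were in WT but not in KO, and 48 were in KO only. Without Mga there were 37 positions in WT or comparison lists and 37 in KO, and Mycn, Mnt and Mlx each had more in WT. Of the 50 WT positions, 64.0% were also in a KO list (interval 50.1% to 75.9%), against 59.0% over all positions of the series. Of the 80 KO positions, 60% were in no WT or comparison list (49.0% to 70.0%), against 29.2% over the series. Mga gave 33 of these 48 positions, and without Mga the share was 40.5% (26.3% to 56.5%). Mga, Mycl and Max, 3 of the 6 genes, had more KO than WT positions, against 29.0% of all listed genes. Mycl, 1 of the 6, had KO positions and 0 WT positions, against 10.2% of all listed genes.

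**Figure D1:**
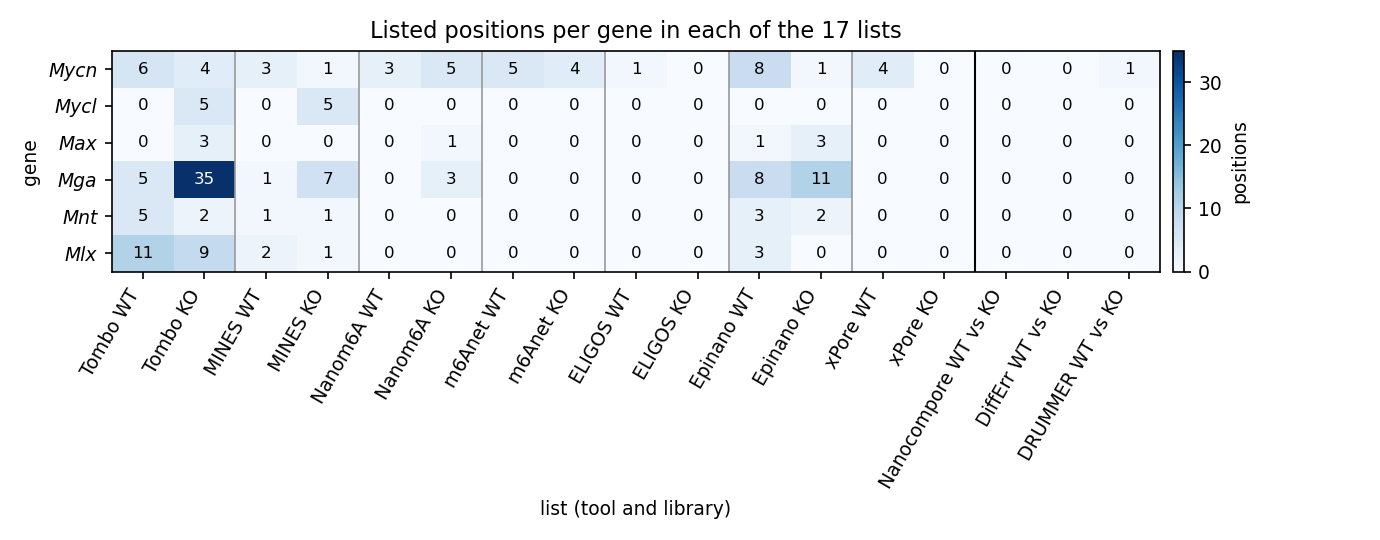
Number of listed positions per gene (rows) in each of the 17 lists (columns, tool and library), with the number written in each cell and shaded from 0 to 35. Mycn has entries in lists of 8 tools, Mga is high in the Tombo KO list with 35 positions, and the xPore, m6Anet, ELIGOS and DRUMMER entries are all in Mycn.

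The genes differ in length, so levels between genes were compared as the share of their exonic RRACH positions that was listed. In WT or comparison lists this share was 56.5% for Mlx (36.8% to 74.4%), 45.5% for Mycn (29.8% to 62.0%), 14.8% for Mnt (7.70% to 26.6%), 5.22% for Mga (3.08% to 8.73%), 2.22% for Max (0.393% to 11.6%) and 0% of 55 for Mycl (0% to 6.53%), against 17% of the RRACH positions in all listed genes. Mlx and Mycn, next to each other in this order, had overlapping intervals, as had Mnt and Mga, Mga and Max, and Max and Mycl. The intervals of Mycn and Mnt did not overlap. Without the Tombo lists the order of Mlx and Mycn turned, with 21.7% for Mlx and 42.4% for Mycn.
In KO lists the share was 39.1% for Mlx (22.2% to 59.2%), 36.4% for Mycn (22.2% to 53.4%), 17.3% for Mga (13.1% to 22.5%), 12.7% for Mycl (6.30% to 24.0%), 9.26% for Mnt (4.02% to 19.9%) and 8.89% for Max (3.51% to 20.7%), against 14.1% over all listed genes. All neighbours in the KO order had overlapping intervals. Without the Tombo lists Mlx moved from first to last in KO, at 4.35% (1 of 23, 0.772% to 21%), below Mycn at 30.3%, Mycl at 9.09%, Mga at 8.03%, Max at 6.67% and Mnt at 5.56%. Between the libraries, the intervals of Mga did not overlap (5.22% in WT and 17.3% in KO), and those of each of the other 5 genes did. Without the Tombo lists the shares of Mga were 3.61% in WT (1.91% to 6.73%) and 8.03% in KO (5.26% to 12.1%), and these intervals overlapped. Read numbers per transcript were not in the lists, so a different number of listed positions cannot be told apart from a different number of reads of that transcript.

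Mycn, the Myc paralogue of embryonic and neural progenitor cells, was the member with the broadest listing. The gene (ENSMUSG00000037169) spans chr12:12936093-12941914 on the minus strand of GRCm38, and transcript ENSMUST00000043396 is 2674 nt long with 3 exons. It held 18 positions, 15 of them in WT or comparison lists and 12 in KO, with 9 in both, 6 in WT but not in KO and 3 in KO only. Exon 3, which holds the end of the CDS and the whole 3′ UTR, carried 16 of the 18.
Tombo listed 6 Mycn positions in WT and 4 in KO, MINES 3 and 1, Nanom6A 3 and 5, m6Anet 5 and 4, ELIGOS 1 and 0, Epinano 8 and 1, and xPore 4 and 0. DRUMMER listed 1 position, and Nanocompore and DiffErr listed 0. Nanom6A was the sole tool with more Mycn positions in KO than in WT. Over the series, every tool with a list per library had fewer positions in KO than in WT. Epinano had 44559 in WT and 15112 in KO, xPore 5368 and 2393, and Nanom6A 33539 and 27861. Mycn was the sole member in the lists of m6Anet, ELIGOS, xPore and DRUMMER.

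The GGACT at -6 nt of Mycn, just before the stop codon at position 12937014, was listed in WT by Tombo, MINES, Nanom6A, Epinano and xPore and by 0 tools in KO. MINES takes values computed by Tombo as its input and Nanom6A works on signals that Tombo assigned to bases, so 3 of these 5 tools share Tombo processing. It was the single member position of the 50 with 5 or more tools and no KO listing, or 2.0% (0.354% to 10.5%), against 0.910% of all WT or comparison positions of the series. The GGACA at 18 nt after the start of the stop codon, at position 12936990, was the single member position in a comparison list, that of DRUMMER, again 2.0% against 2.45% over the series. It was listed in WT by Tombo, MINES and Epinano, and in KO by Tombo, MINES and m6Anet, the most KO tools of any Mycn position. The 2 positions lie 24 nt apart on the transcript and differed in the KO lists.

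Farther upstream, the GGACT at -1043 nt in exon 2 was in the WT lists of Tombo, Epinano and xPore and in the KO list of m6Anet. The AGACT at -266 nt was in WT by Tombo, MINES and Epinano and in KO by Tombo and Epinano, and the GGACA at -257 nt was in WT by Tombo and ELIGOS and in KO by Tombo. These 2 positions are 9 nt apart, and their windows overlap. The GGACC at -176 nt was in the WT lists of Epinano and xPore and the GGACA at 145 nt in that of xPore, both with 0 KO listings. All 4 xPore positions of Mycn, at -1043, -176, -6 and 145 nt, thus carried GGAC, and xPore listed 0 in KO.
The rest of the 3′ UTR was listed mostly by Nanom6A, m6Anet and Epinano. The AAACA at 63 nt was in both Nanom6A lists, and the AAACA at 67 nt was in the same lists and in Epinano in WT. The AAACT at 177 nt was in Epinano and m6Anet in WT and in Nanom6A in KO, and the GGACA at 249 nt was in Epinano and m6Anet in WT and in 0 KO lists. At 390 nt (GAACA, m6Anet) and 472 nt (AGACT, Tombo) there was 1 WT tool and 0 KO tools. The GAACT at 690 nt was in m6Anet in WT and Nanom6A in KO, and the GAACT at 794 nt was in both m6Anet lists. The 3 positions in KO only were an AGACC in the 5′ UTR at -1524 nt by Tombo, a GAACA at -16 nt by m6Anet and an AAACT at 698 nt by Nanom6A. Each of these had 1 tool.

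**Figure D2:**
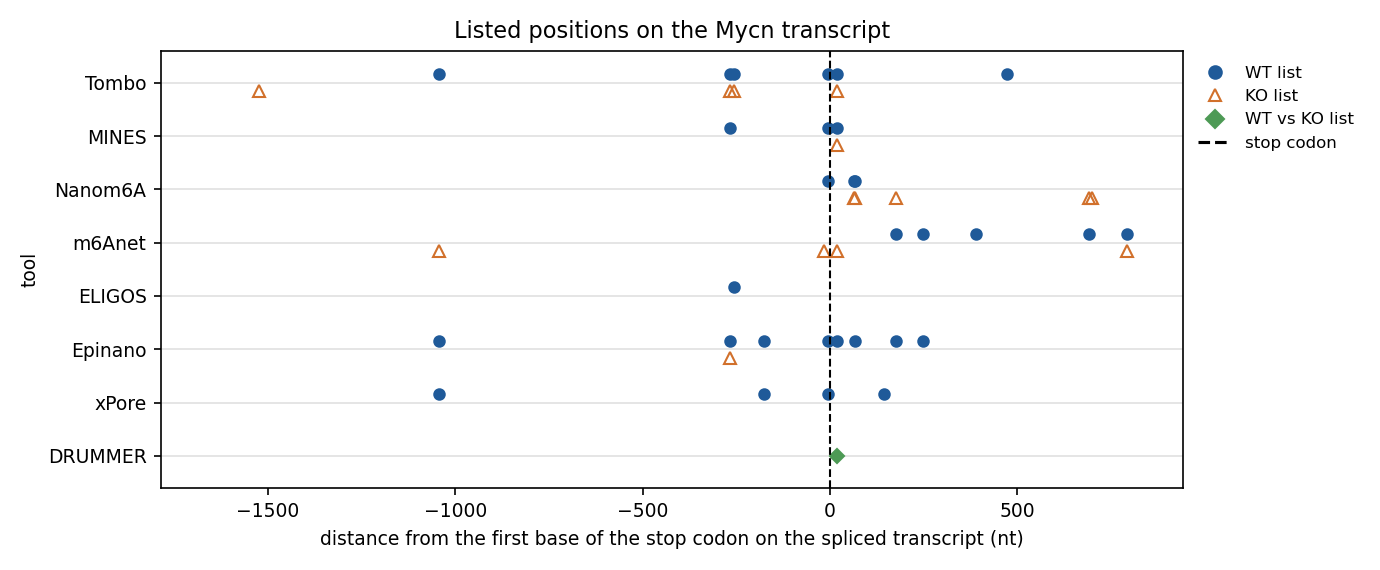
Listed positions on the Mycn transcript by tool (rows), against the distance in nt from the first base of the stop codon, with filled circles for WT lists, open triangles for KO lists and a diamond for the comparison list of DRUMMER. The WT positions of 5 tools meet at -6 nt with no KO mark, while at 18 nt the KO lists of 3 tools have a mark.

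Mycl, the third Myc paralogue, was listed in KO alone. The gene (ENSMUSG00000028654) spans chr4:122995652-123002485 on the plus strand of GRCm38, and transcript ENSMUST00000106252 is 3293 nt long. All 7 positions came from Tombo or MINES, with 5 in the KO list of each and 3 in both. The 3 that both tools listed were GGACA, at -1106 nt in the 5′ UTR and at 442 and 965 nt in the 3′ UTR, and no sequence is printed for the first because its window crosses an exon end. A GGACA at -560 nt in the CDS and an AAACT at 1925 nt were in Tombo alone, and GGACA at 1468 and 1941 nt in MINES alone. GGACA thus made up 6 of the 7. Epinano, Nanom6A, m6Anet, ELIGOS, xPore and the 3 comparison tools listed 0 Mycl positions.

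Max, a partner shared by the Myc proteins, Mnt and Mga, had few positions. The gene (ENSMUSG00000059436) spans chr12:76937269-76962201 on the minus strand of GRCm38, and transcript ENSMUST00000110395 is 1942 nt long. All 4 positions lay in the 3′ UTR, and all 4 were in KO. The AAACC at 975 nt was the single WT position, by Epinano, and was in KO by Tombo, Nanom6A and Epinano. The other 3, a GAACT at 466 nt by Epinano, a GGACA at 570 nt by Tombo and an AGACC at 625 nt by both, were in KO only. The CDS of Max, with 10 RRACH positions, had 0 listed positions in either library.

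Mga, the large Max partner of PRC1.6, held the most positions of the network and most of those in KO only. The gene (ENSMUSG00000033943) spans chr2:119897228-119969581 on the plus strand of GRCm38, and transcript ENSMUST00000110774 is 13931 nt long with 24 exons. Of its 46 positions, 13 were in WT lists, 43 in KO lists, 10 in both, 3 in WT but not in KO, and 33 in KO only. Tombo listed 5 in WT and 35 in KO, MINES 1 and 7, Nanom6A 0 and 3, and Epinano 8 and 11. Each of these 4 tools thus had more positions in KO, and all 5 Tombo positions and the 1 MINES position of WT were listed again by the same tool. Over the series each of the 4 listed fewer in KO, with 75219 WT and 68039 KO positions for Tombo and 13407 and 9430 for MINES. Nanom6A had 33539 and 27861, and Epinano 44559 and 15112.
The libraries differed along the Mga transcript. In the CDS, 0 of 161 RRACH positions were listed in WT (interval 0% to 2.33%) and 27 in KO, or 16.8% (11.8% to 23.3%). In the 3′ UTR, 13 of 72 were listed in WT, or 18.1% (10.9% to 28.5%), and 16 in KO, or 22.2% (14.2% to 33.1%), with overlapping intervals. Of the 27 CDS positions in KO, Tombo listed 21, Epinano 7 and MINES 5. Without the Tombo lists, 12 of the 161 were listed in KO, or 7.45% (4.31% to 12.6%), and 0 in WT.
By exon, the KO positions of Mga reached from exon 8 to the last exon. Exon 17, of 1469 nt, held 11 positions, and exons 8, 10, 15, 16 and 22 held 2, 1, 1, 4 and 4, all in KO only. Exon 24, which holds the end of the CDS and the 3′ UTR, held 23, of which 13 were in WT and 20 in KO. The position farthest from the transcript end was at 3819 nt in WT and 11023 nt in KO. Of the 8364 other coding genes with both WT and KO positions, 26.1% had a KO position farther from the end than any WT position, and 0.777% had one farther by over 3000 nt, a threshold chosen after the values of Mga were seen. Of the 503 of them with over 3000 nt of transcript beyond the farthest WT position, which alone could show such a gap, 12.9% did. Direct RNA reads begin at the poly(A) tail, and read lengths over Mga were not in the lists, so their part in this difference was not tested.

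**Figure D3:**
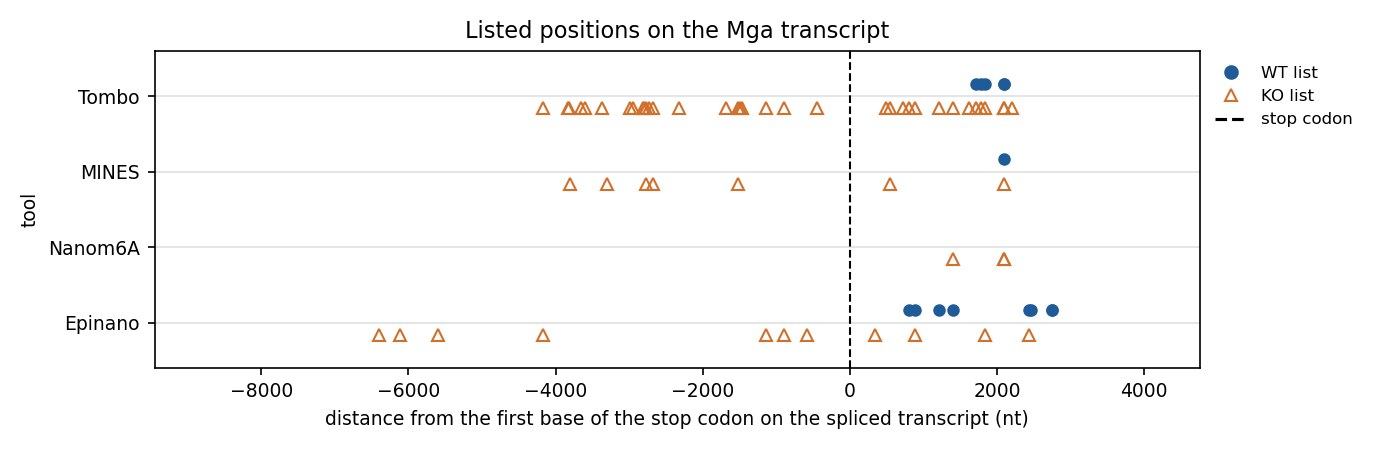
Listed positions on the Mga transcript by tool (rows), against the distance in nt from the first base of the stop codon, with filled circles for WT lists and open triangles for KO lists. All WT marks lie after the stop codon, between 799 and 2751 nt, while KO marks run from -6405 to 2435 nt.

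Within Mga, 26 of the 33 positions in KO only came from 1 KO list and 7 from 2 or more. Tombo or MINES listed 28 of the 33, and the other 5 came from neither of them. The GGACA positions at -2765 and -2669 nt in exon 17, at -1516 nt in exon 22 and at 549 nt in the 3′ UTR were in KO by Tombo and MINES. The AAACT at -4167 nt, the AGACA at -1136 nt and the AGACT at -889 nt were in KO by Tombo, which reads the current, and by Epinano, which reads base-calling errors. The position with most tools was the GGACC at 2102 nt, in WT by Tombo and MINES and in KO by Tombo, MINES and Nanom6A, which share Tombo processing. The 3 WT positions outside the KO lists, at 2466, 2743 and 2751 nt, were all from Epinano and lay at the far side of the listed stretch.

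Mnt, the widely expressed Max partner that opposes Myc, had all its positions in the 3′ UTR. The gene (ENSMUSG00000000282) spans chr11:74830920-74845725 on the plus strand of GRCm38, and transcript ENSMUST00000000291 is 4590 nt long. Of 10 positions in exon 6, 8 were in WT and 5 in KO, with 3 in both, 5 in WT but not in KO and 2 in KO only. Tombo listed 5 in WT and 2 in KO with 0 shared, MINES 1 and 1 at the same place, and Epinano 3 and 2 with 0 shared. The GGACA at 250 nt was in WT by Tombo and MINES and in KO by MINES. The AGACT at 151 nt was in WT by Tombo and in KO by Epinano, and the AGACA at 1217 nt in WT by Epinano and in KO by Tombo, so both rest on different tools in the 2 libraries. The remaining WT positions, at 220, 851, 911, 1827 and 1866 nt, each had 1 tool and 0 KO tools. The CDS of Mnt, with 18 RRACH positions, had 0 listed positions in either library.

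Mlx, the partner of the Mondo proteins, had 0 positions in KO only, and its listed share was the highest of the 6 genes with the Tombo lists but below that of Mycn without them. The gene (ENSMUSG00000017801) spans chr11:101087277-101092207 on the plus strand of GRCm38, and transcript ENSMUST00000017945 is 1965 nt long with 8 exons. Its 13 positions were all in WT, and 9 of them were also in KO. Tombo listed 11 in WT and 9 in KO with 8 shared, MINES 2 and 1 with 0 shared, and Epinano 3 and 0. The positions ran over nearly the whole transcript in both libraries, from 1910 nt before its end, with 6 in WT and 5 in KO of 14 RRACH positions in the CDS, and 7 and 4 of 9 in the 3′ UTR.
The GAACT at 61 nt was in WT by Tombo and Epinano and in 0 KO lists. The AGACT at 82 nt and the GGACA at -224 nt were in WT by Tombo and MINES and in KO by Tombo. The GGACC at -866 nt, in exon 1, was in WT by Tombo and in KO by Tombo and MINES. The other WT positions absent from the KO lists were a GAACA at -481 nt by Tombo, an AAACT at 723 nt by Epinano and an AGACC at 735 nt by Tombo.

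**Figure D4:**
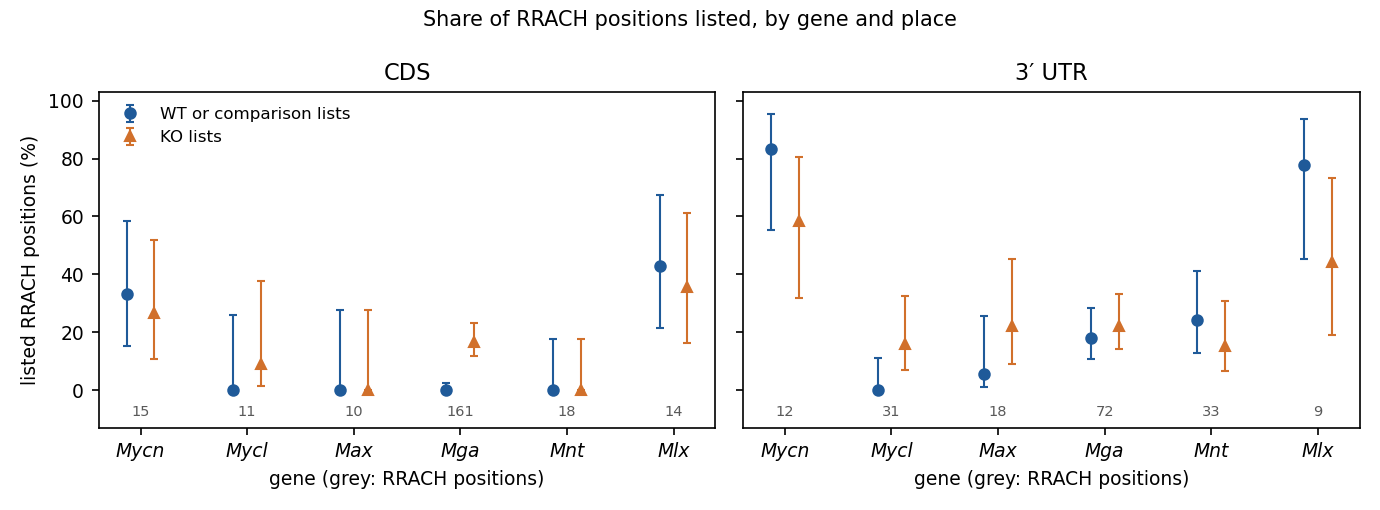
Share of RRACH positions of the transcript that was listed (%, vertical axis) per gene, in the CDS (left) and the 3′ UTR (right), with circles for WT or comparison lists, triangles for KO lists, bars for 95% Wilson intervals and the number of RRACH positions in grey. The CDS of Mga is at 0% in WT and 16.8% in KO with intervals that do not overlap, and in WT the 3′ UTR is at 83.3% in Mycn and 77.8% in Mlx.

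Over the network, the WT positions lay mostly in 3′ UTRs. Of the 50, 39 were in the 3′ UTR, or 78.0% (64.8% to 87.2%), against 40.7% of the WT or comparison positions of all genes and 42.3% of the RRACH positions of the same 6 transcripts. All 13 WT positions of Mga and all 8 of Mnt were there, and the share was 82.9% without Mycn. Without Mga it was 70.3% (54.2% to 82.5%), an interval that holds the 57.9% of RRACH positions in the 3′ UTR of the other 5 transcripts. A window of 200 nt around the stop codon held 11 of the 50, or 22.0% (12.8% to 35.2%), against 22.4% over all genes and 7.97% of the RRACH positions of the 6 transcripts. Mycn held 7 of these 11, Mlx 3 and Mnt 1, and without Mycn the share was 11.4%. Without Mga it was 29.7% (17.5% to 45.8%), against 17.4% of the RRACH positions of the other 5 transcripts.
Of the 80 KO positions, 2 were in the 5′ UTR, 37 in the CDS and 41 in the 3′ UTR, and Mga gave 27 of the 37. Without Mga, 67.6% of the KO positions were in the 3′ UTR (51.5% to 80.4%), an interval that holds the 57.9% of RRACH positions there. Over all genes, 38.0% of the KO positions were in the 3′ UTR. The same window held 8 of the 80, or 10% (5.15% to 18.5%), against 21% over all genes and 7.97% of the RRACH positions of the 6 transcripts. Mga had 0 of its 43 KO positions there, and without Mga the share was 21.6% (11.4% to 37.2%). Of the RRACH positions of the other 5 transcripts, 17.4% lay in the window. The 8 were 5 in Mycn, 2 in Mlx and 1 in Mnt.

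The share of WT member positions that the same tool listed again in KO was set beside that of its whole list. It was 59.3% for Tombo (16 of 27, 40.7% to 75.5%) against 59.7% over the series, and 42.9% for MINES (3 of 7) against 40.2%. It was 66.7% for Nanom6A (2 of 3) against 65.4%, and 17.4% for Epinano (4 of 23, 6.98% to 37.1%) against 16.5%. For m6Anet it was 20% (1 of 5) against 34.4%, and ELIGOS, with 0 of 1, and xPore, with 0 of 4, stood against 11.5% and 24.9%. With 1 to 7 WT member positions in 5 of the 7 tools, only the shares of Tombo and Epinano rest on more than 20 positions.
Of the 50 WT or comparison positions, 36 had 1 tool, or 72.0% (58.3% to 82.5%) against 65.3% over the series, 10 had 2 (20% against 22.2%) and 4, all in Mycn, had 3 or more (8.0% against 12.6%). Of the 80 KO positions, 60 had 1 tool (75.0% against 76.7%), 17 had 2 (21.2% against 19.0%) and 3 had 3 (3.75%, against 4.30% with 3 or more), so the support was near that of the series. The 3 with 3 KO tools were those at 18 nt in Mycn, 975 nt in Max and 2102 nt in Mga.

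**Figure D5:**
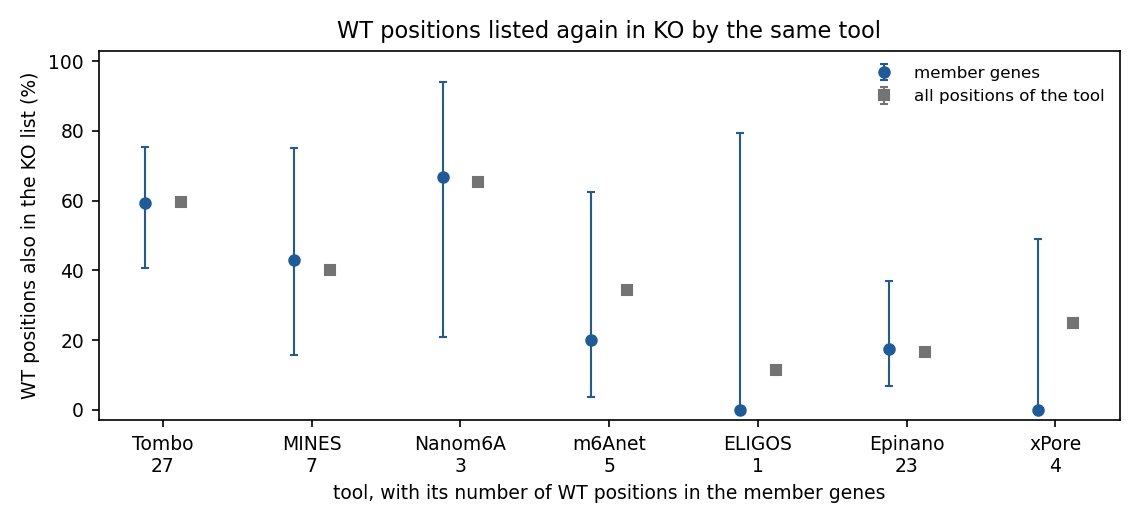
Share of the WT positions of a tool that its own KO list also holds (%, vertical axis), for the member genes (circles, with 95% Wilson intervals) and for all positions of the tool (squares), with the number of WT member positions under each tool. The squares run from 11.5% for ELIGOS to 65.4% for Nanom6A, and the member intervals of ELIGOS, Nanom6A, MINES, m6Anet and xPore are wide.

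The 5-mers of the positions in KO only were led by GGACA. It made up 16 of these 48, or 33.3%, against 12.5% of all such positions of the series, with 8 in Mga, 6 in Mycl, 1 in Max and 1 in Mnt. GGACT and GGACC, the other GGAC sequences of RRACH, made up 0 of the 48, against 7.44% and 7.52% over the series. Among the 50 WT or comparison positions, GGACA made up 20% and GGACT 10%, against 14.5% and 11.9%. No test was made of these shares, and Tombo or MINES listed 39 of the 48 positions in KO only. MINES reports only GGACH and AGACT, so part of the listings are bound to these sequences.

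The wider network was read by gene groups, and 11 of its 40 genes with a position had more in KO than in WT, or 27.5%, near the 29.0% of all listed genes, of which 61.3% had more in WT. Of 6 other E-box partners, Mxi1 (20 WT or comparison and 21 KO positions) and Mxd3 (7 and 11), both Max partners that repress, had WT positions, and all 4 genes with any position had more in KO, by 1 position in Mxi1. The other two, Mlxip (0 and 1) and Mlxipl (0 and 3), are the Mondo partners of Mlx. Of 9 PRC1.6 partners of Mga, all had WT and KO positions, 7 had more in WT and 2 more in KO. The 3 with most WT positions were L3mbtl2, which binds histone tails (30 and 31), Tfdp1, the dimer partner of E2f proteins (29 and 22), and Rnf2, the ubiquitin ligase of Polycomb (26 and 21). All 10 co-factors of Myc had WT and KO positions, and 8 had more in WT. Kat2a, a histone acetyltransferase, had 27 and 20, Ep400, a chromatin remodeller, 22 and 18, and Ruvbl2, an ATPase of the same complex, 21 and 18, level in WT with Sin3a, a scaffold of histone deacetylases (21 and 10).
Among 8 genes of Myc turnover, 7 had WT positions and 4 had more in WT than in KO. The ubiquitin ligase Huwe1 had 43 and 26, the kinase Aurka 29 and 29, and Trpc4ap 28 and 20. Fbxw7, the substrate receptor that marks phosphorylated Myc for degradation, had 0 WT and 20 KO positions. Of 10 known Myc targets, 9 had WT positions and 5 had more in WT than in KO. The nucleolar proteins Ncl and Npm1 had 43 and 41 and 32 and 32, and Cad, an enzyme of pyrimidine synthesis, had 29 and 19. Comparison lists held 19 of the 222 WT or comparison positions of the targets, or 8.56% (5.55% to 13.0%), against 2.45% over the series and 8.37% (5.48% to 12.6%), or 20 of 239, for the mESC markers. The 19 lay in Npm1 (7), Ldha (5), Ncl (4) and Eif4e (3). Comparison lists held 5 of 205 of the PRC1.6 partners (2.44%), 3 of 161 of the turnover genes (1.86%), 2 of 169 of the co-factors (1.18%) and 0 of 27 of the E-box partners. In the paper, the recall of the 3 comparison tools rose with coverage. Coverage is unknown here, and its part in these shares was not tested.

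The labels were checked by gene lists, since the files hold no expression level. All 9 mESC markers had WT and KO positions, 5 of 6 markers of differentiated cells had none, and Sox17, the sixth, had 12 in WT and 0 in KO. Of 4 markers of fibroblast feeders, 1 had WT positions and 2 had KO positions, with 3 and 4 positions in all. Mettl3 itself had 13 WT and 5 KO positions, with 2 and 0 in the replaced exons 5 to 7, 7 and 0 in exons 1 to 4 and 4 and 5 in exons 8 to 11, so the lack of KO positions was not limited to the replaced exons. The part of these in the results of the member genes was not tested.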

How the data were processed

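Per the labels and the study's methods, the authors sequenced native poly(A) RNA of 1 WT and 1 Mettl3 KO library, basecalled with Guppy 5.0.7, aligned with Minimap2 2.17 to GENCODE VM18 transcripts, ran 10 tools and converted sites to GRCm38. The deposited lists hold positions only and no other value. The methods required a minimum of reads per site, higher for m6Anet, and cut-offs chosen per tool by F1 score, whose values were not used here. The lists give no depth above that minimum, so precision per site is unknown.

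Member genes and gene lists were chosen with earlier results of these data known. Positions were counted once per base and strand within GENCODE M21 exons, which held 99.95% of the 16356 listed transcript identifiers. Distances were taken on the coding transcript with most listed positions. Sequences were printed for the sites of each gene with most tools in WT, those in a comparison list and those with most tools in KO, and for 13 more chosen after their values were seen, as were the other sites named. Of the wider groups, the 3 genes with most WT positions were named, and Fbxw7, Sox17, Mlxip, Mlxipl, Ldha, Eif4e and Pcgf6 were named after their values were seen. Shares have 95% Wilson intervals, and no p-value was computed. Alternatives joined positions within 5 bp, left out Tombo, Nanom6A or a gene, or changed the window, transcript, tool minimum or count per line. The intervals were tested on simulated counts, and the joining of positions and their placement on a transcript on small made-up examples. Python 3.11.15, pysam 0.24.0 and matplotlib 3.10.9 were used.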

Additional observations from a re-analysis of the deposited data

How the results depend on the processing

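Of the alternatives, 49 values stayed within their counting error or within 1.5 times the count, and 23 moved. Joining positions within 5 bp, reading names from the lists and the choice of transcript moved none. Without the Tombo lists there were 33 WT or comparison and 42 KO positions, the share of WT positions also in KO was 42.4%, 0 positions had 5 tools and no KO listing, and the listed share was 7.41% for Mnt and 21.7% for Mlx, below the 42.4% of Mycn. Without the Nanom6A lists, or with at least 6 tools, the count of such positions was also 0. With 1 count per line of a list there were 90 WT or comparison and 134 KO entries. By the KO list of the same tool, the share also in KO was 0% for xPore and ELIGOS, 17.4% for Epinano, 20% for m6Anet and 42.9% for MINES. The share near the stop codon was 12% within 100 nt, 40.0% within 400 nt and 10% for KO positions, whose share in the 3′ UTR was 51.2%. Chosen after seeing the data, leaving out Mga gave 37 KO positions beside 37 in WT or comparison lists, and leaving out Mycn gave 11.4% near the stop codon, 0 positions with 5 tools and no KO listing and 0 in a comparison list. The KO values without the Tombo lists per gene, and the places of KO positions without Mga, were also chosen after seeing the data. No pairing of replicates was possible because there is 1 library per condition. The WT and KO shares of a gene rest on the same RRACH positions, which their intervals do not take into account. Without coverage, neither library can show that a position was read and found unmodified.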

Other observations

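Outside the 7 genes, 3 of the 784 WT or comparison positions of the wider network, or 0.383% against 0.910% over the series, had 5 tools and no KO listing, and they were picked out after their values were seen. Their sequences are printed as those of the network, with the RRACH 5-mer in capitals. The position in Pcgf6, the Polycomb ring finger protein of PRC1.6, and the first in Kat2a were both AGACT in the 3′ UTR, listed by Tombo, Nanom6A, m6Anet, xPore and Nanocompore. The second in Kat2a was a GGACT in the 3′ UTR, listed by Tombo, Nanom6A, m6Anet, Epinano and xPore.
Pcgf6 192 nt, chr19:47034429-47034449, minus strand: tacactaaAGACTatggaaac
Kat2a 359 nt, chr11:100704871-100704891, minus strand: aacagcccAGACTggaggaac
Kat2a 77 nt, chr11:100705153-100705173, minus strand: cctctcccGGACTcagctgga

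Fbxw7 had 14 Tombo, 2 MINES and 5 Epinano positions in KO and 0 in the WT lists of the same tools, while Sox17, an endoderm factor, had 6 Tombo, 1 MINES and 10 Epinano positions in WT and 0 in KO. Neither gene had a position in a comparison list.

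Over the 17 lists, the counts of Mycn were most like those of Bnip1 (Pearson r = 0.918), Snapc2 (0.900) and Ddx17 (0.900), among 5772 genes with at least 10 WT or comparison positions. The lists share libraries, and MINES and Nanom6A build on Tombo, so these values are a description.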
